A study of Homo sapiens with 18 samples.

Results

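The 9 genes described here are 3 members of the SPNS transporter family (SPNS1, SPNS2 and SPNS3) and 6 genes of sphingosine-1-phosphate (S1P) metabolism and sensing (SPHK1, SPHK2, SGPL1, S1PR1, S1PR2 and S1PR4). They were taken by symbol from the 23686 gene symbols of the deposited tables, and all 9 were found. SPNS3 was chosen by its measured values in OCI-Ly1, where it had a very large dose-dependent rise, so those values are given as a description with no test. The RNA came from OCI-Ly1 and TMD8, established lines of human diffuse large B-cell lymphoma. Cells received 0.01% DMSO as the vehicle, or JIB-04, an inhibitor of Jumonji-domain histone demethylases, at 150 nM or 500 nM. Each of the 6 groups had 3 libraries, described as technical triplicates, so adjusted p-values measure only the spread between these libraries, which may be technical. The culture media differed, IMDM for OCI-Ly1 and RPMI for TMD8, and cell line and medium therefore cannot be told apart. The treatment time is not given in the sources used here.

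S1P is a lipid signal made from sphingosine by the sphingosine kinases SPHK1 and SPHK2 and cleaved irreversibly by the lyase SGPL1. SPNS2 exports S1P from cells, whereas SPNS1 moves lysophospholipids out of lysosomes and SPNS3 is a less well characterised relative. Outside the cell S1P acts on G-protein-coupled receptors: in lymphocytes S1PR1 directs exit from lymphoid tissue, S1PR2 acts through the Gα13 protein to hold germinal-centre B cells in place, and S1PR4 is expressed mainly in blood cells.

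Upstream sequences are shown for S1PR1, S1PR2 and SPHK1, the receptors and the kinase whose changes are described most fully. RefSeq promoters of build GRCh38.p14 were available for 7 of the 9 genes, and SPNS2 and SPNS3, which also changed, had none. The bases lie directly before the annotated start, 5′ to 3′ on the gene's strand, and capitals mark matches on either strand to CACCC (a box bound by KLF and SP factors), TGACGTCA (the cyclic AMP response element), CACGTG (the E-box) or TGATGNAA (a core of the amino acid response element). None of these motifs overlapped another in the sequences printed.
S1PR1, chr1:101236769-101236898, plus strand: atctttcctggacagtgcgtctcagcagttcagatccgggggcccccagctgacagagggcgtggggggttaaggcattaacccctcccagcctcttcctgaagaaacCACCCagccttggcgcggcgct
S1PR2, chr19:10231332-10231581, minus strand: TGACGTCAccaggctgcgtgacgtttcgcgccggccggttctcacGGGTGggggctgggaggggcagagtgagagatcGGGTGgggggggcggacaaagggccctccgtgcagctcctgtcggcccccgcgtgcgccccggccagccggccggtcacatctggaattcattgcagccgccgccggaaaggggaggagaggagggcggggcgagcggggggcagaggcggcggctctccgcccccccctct
SPHK1, chr17:76382954-76383203, plus strand: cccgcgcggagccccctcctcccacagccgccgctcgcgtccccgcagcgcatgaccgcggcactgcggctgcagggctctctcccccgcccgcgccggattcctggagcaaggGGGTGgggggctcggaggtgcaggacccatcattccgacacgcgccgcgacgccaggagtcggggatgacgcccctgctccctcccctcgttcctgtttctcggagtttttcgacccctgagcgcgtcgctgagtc
CACCC matched once in S1PR1, 2 times in S1PR2 and once in SPHK1, and it was present in 54.7% of 35116 windows of 250 bases and in 33.8% of windows of 130 bases. The single TGACGTCA was in S1PR2, and 1.65% of all windows of 250 bases held one. CACGTG and TGATGNAA had no match in these 3 sequences and were present in 6.34% and 3.14% of windows of 250 bases. A match is a string of letters and was not tested as a binding site.

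Depth, as the sum of estimated counts per library, was 17579732 to 32651115 for OCI-Ly1 and 9550092 to 20509500 for TMD8. Levels are given as TMM-scaled counts per 1000000 (CPM), computed within each line, and differences as log2 fold changes from edgeR with their standard errors (SE). A gene was called at a Benjamini-Hochberg adjusted p under 0.05 over all genes tested. No pair of libraries in a group agreed within sampling noise, and TMD8 DMSO library 1 stood apart from its 2 partners, with a chi-square per degree of freedom of 10.9 and 11.5 against 1.94 between the others. The B-cell genes MS4A1, CD79A, CD79B and PAX5 were expressed in both lines, at 33.3 TPM (transcripts per 1000000) or more in every library. The germinal-centre markers BCL6, MME and MYBL1 were higher in OCI-Ly1 (MME 61.5 to 93.0 TPM, against at most 0.0298 in TMD8), whereas a further marker of that list, LMO2, was at most 1.06 TPM in OCI-Ly1 and 6.75 to 28.1 in TMD8. Of 3 markers of endothelium, a cell type rich in S1PR1 and SPNS2, CDH5 and VWF were at or near 0, at most 0.0373 TPM in any library, whereas PECAM1 was detected in every library, at 1.216 to 2.48 TPM in OCI-Ly1 and 0.647 to 0.972 in TMD8. The T-cell genes CD3D and CD3G were detected in OCI-Ly1 and were lower at 500 nM (CD3D 4.68 to 5.08 TPM) than in DMSO (10.8 to 12.9), while CD3E was at most 0.506. CD3G was also detected in every TMD8 library, at 1.05 to 1.56 TPM. There it was higher at 500 nM (3.17 to 3.36 CPM) than in DMSO (1.65 to 2.19 CPM). The part of such transcripts in the results was not tested.

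In the DMSO libraries the lines had opposite receptor profiles. TPM, which accounts for transcript length, was used to order genes within a group. In OCI-Ly1 S1PR2 was the most abundant of the 9 genes, at 27.8 ± 1.67 TPM (SD, n = 3), followed by SGPL1 at 12.2. SPNS1 (8.80 TPM) and SPHK2 (8.19) came next and overlapped each other, SPHK1 followed at 5.50, and SPNS2, SPNS3 and S1PR1 lay between 0.710 and 1.26 with overlapping neighbours. S1PR4 was lowest, at 0.139 TPM. In TMD8 the order began with S1PR1 at 20.5 TPM, then SPHK2 at 16.7, SPNS1 at 9.11 and SGPL1 at 7.40, each separate from the next. S1PR2 (5.52 TPM) and SPHK1 (4.55) overlapped in TMD8, SPNS2 was at 1.24 and S1PR4 at 0.389, and SPNS3 was listed at 0. The S1PR1 to S1PR2 ratio of TPM was 0.0222, 0.0250 and 0.0297 in the 3 OCI-Ly1 DMSO libraries and 4.85, 3.26 and 3.22 in those of TMD8.

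**Figure D1:**
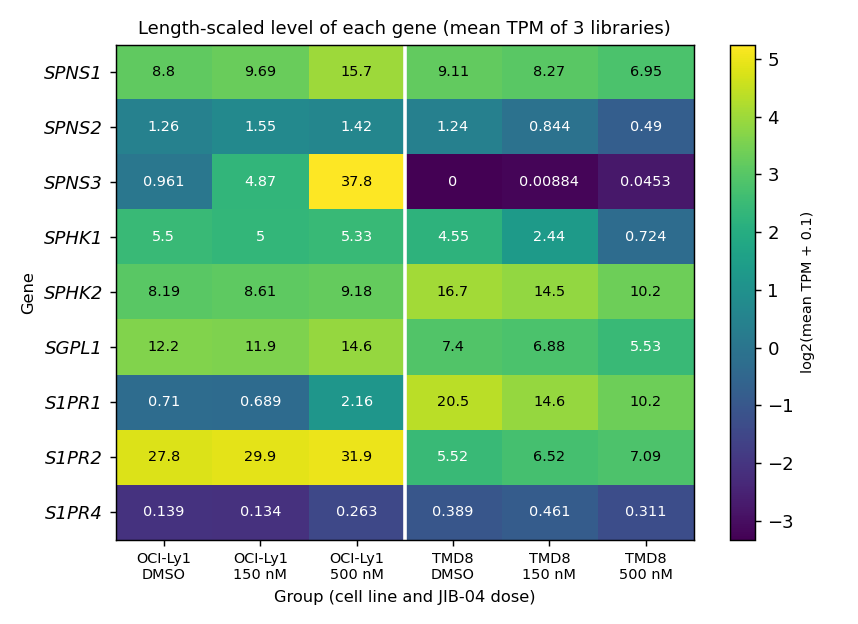
Heat map of the mean TPM of 3 libraries for the 9 genes (rows) in the 6 groups of cell line and JIB-04 dose (columns), with the mean printed in each cell and colour on a log2(TPM + 0.1) scale. SPNS3 goes from 0.961 to 37.8 TPM across the OCI-Ly1 columns and stays at 0 to 0.0453 in TMD8, and S1PR2 and S1PR1 are the highest rows in DMSO of OCI-Ly1 and TMD8 respectively.

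In 1 fit of all 18 libraries, 76.7% of 16604 genes differed between the lines in DMSO, and all 8 members other than SPNS3 were among them. In TMD8 7 were higher: S1PR1 by 5.82 ± 0.09 on the log2 scale, S1PR4 by 2.27 ± 0.53, SPHK2 by 1.99 ± 0.11, SPNS1 by 1.03 ± 0.09, SPNS2 by 0.96 ± 0.20, SPHK1 by 0.69 ± 0.13 and SGPL1 by 0.25 ± 0.05. S1PR2 alone was lower in TMD8, at -1.34 ± 0.09. S1PR4 had 0 to 7 counts per OCI-Ly1 DMSO library and 13 to 15 in TMD8. It failed the low-count filter within OCI-Ly1 and entered this fit through TMD8, where it was higher. The S1PR4 call is therefore not read as support for a line difference. With so large a share of genes called, the count itself sets the members little apart from other genes, and the sizes are the description. On the scale shared by both lines S1PR1 was 1.59 ± 0.18 CPM in OCI-Ly1 and 89.8 ± 4.75 in TMD8 (SD, n = 3). The smallest of the differences, in SGPL1, was no longer called when libraries were scaled by their totals alone (0.10, adjusted p = 0.084).

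SPNS3 was the gene that changed most among the 9. In OCI-Ly1 it had 23, 27 and 38 counts in DMSO, followed by 178, 168 and 111 at the lower dose and 1746, 1214 and 1377 at the higher. These correspond to 0.912, 1.58 and 1.53 CPM, then 7.18, 6.93 and 5.91, then 52.0, 47.0 and 45.4. No library of a higher dose overlapped one of a lower dose. The log2 difference from DMSO was 2.35 ± 0.17 at 150 nM and 5.19 ± 0.14 at 500 nM, and that between the doses was 2.84 ± 0.11. Its level in TPM rose from 0.961 in DMSO, the seventh of the 9 genes, to 4.87 at 150 nM and 37.8 at 500 nM, where it was the highest of the 9 and lay above S1PR2 (31.9) in every library.

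Among 11112 genes with more than 3 counts in every OCI-Ly1 DMSO and 500 nM library and at least 5 CPM in the higher group, SPNS3 had the largest log2 rise at 500 nM. The next were ROCK1P1 at 4.83, CHAC1 at 4.62 and BATF3 at 4.52. Without those conditions it ranked 42 among all 15638 genes tested, behind genes that did not meet one of these conditions. This rank is the property by which the gene was chosen.

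TMD8 had almost no SPNS3 RNA at any dose. The 3 DMSO libraries had 0 counts each, of 55683060 in all, which allows at most 0.0539 counts per 1000000 for a limit of 3 counts over the group. At 150 nM there were 1, 0 and 0 counts and at 500 nM 0, 3 and 2. With the same limit and no TMM scaling, SPNS3 in DMSO was at least 23.9-fold higher in OCI-Ly1 (1.29 counts per 1000000 over the group) than in TMD8. At 500 nM the upper 95% limit in TMD8 was 0.311 counts per 1000000, against 50.2 in OCI-Ly1 at that dose. These counts cover counting error only, and a change of SPNS3 with dose in TMD8 within that limit was not detectable at this depth.

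**Figure D2:**
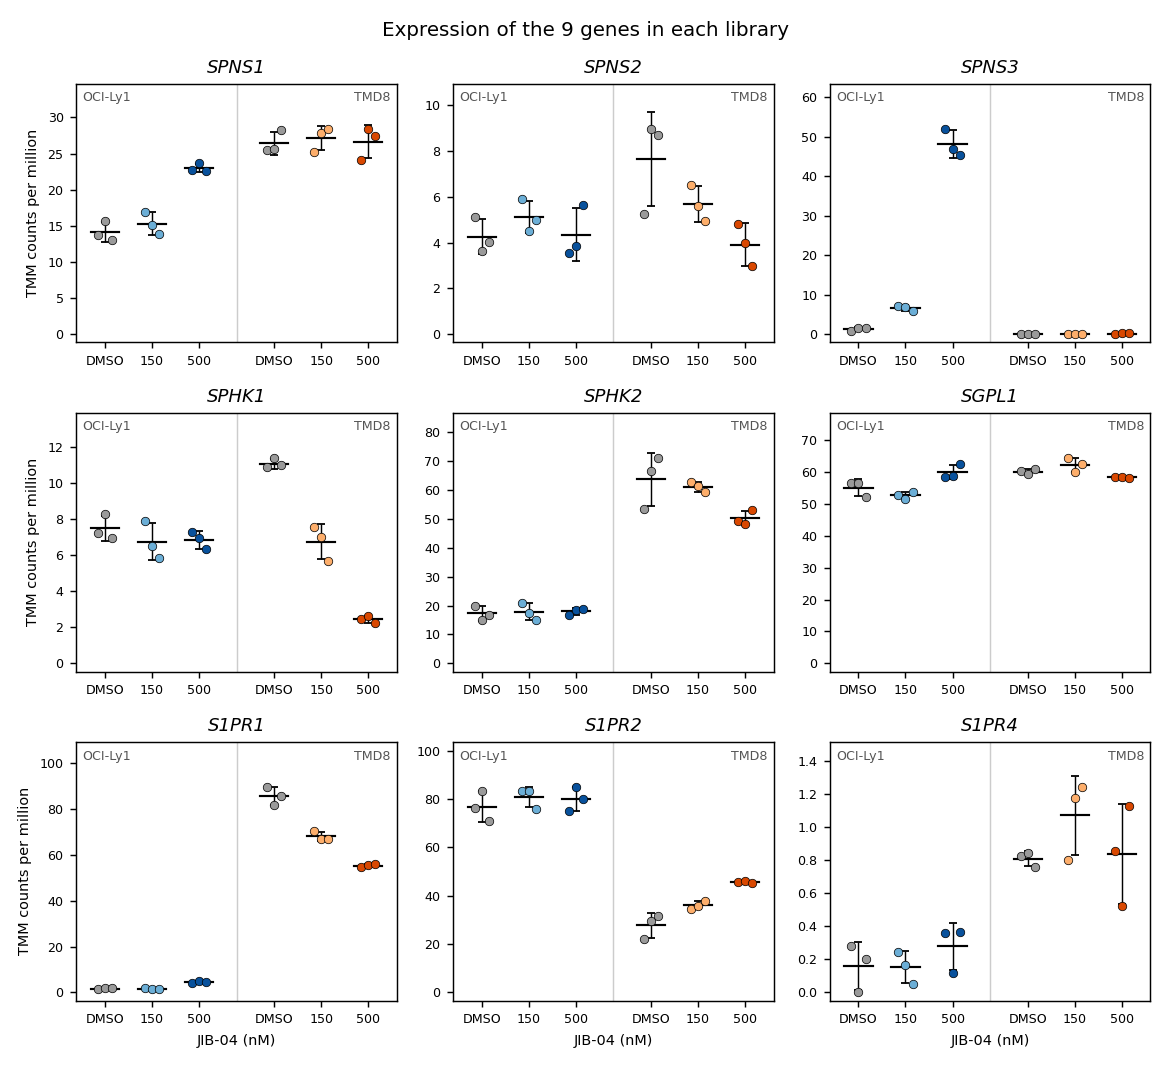
TMM counts per 1000000 of the 9 genes in each of the 18 libraries by JIB-04 dose in nM, with OCI-Ly1 to the left and TMD8 to the right of each panel and values scaled within each line. Points are libraries, and bars are the mean ± SD of 3 libraries. SPNS3 climbs to 45.4 to 52.0 in OCI-Ly1 at 500 nM and is near 0 in TMD8, and SPHK1 descends to 2.25 to 2.62 in TMD8.

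The other SPNS genes followed different courses in the 2 lines. SPNS1, the lysosomal transporter, had 13.8, 15.7 and 13.0 CPM in OCI-Ly1 with DMSO, while the 150 nM libraries had 17.0, 15.1 and 13.9 and the 500 nM libraries 22.8, 23.7 and 22.6. All 3 libraries at 500 nM were above the other 6, and the rise over DMSO was 0.70 ± 0.09 on the log2 scale (adjusted p = 6.0e-06). In TMD8 SPNS1 was 24.1 to 28.4 CPM over the 9 libraries with overlapping groups, and the value at 500 nM was 0.01 ± 0.08 (adjusted p = 0.96). On the TPM scale the same comparison in TMD8 was -0.35 with log2(TPM + 1) (adjusted p = 0.0086), where the median of all genes was -0.22. The change in OCI-Ly1 exceeded that in TMD8 by 0.73 ± 0.13 (adjusted p = 3.4e-05).

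SPNS2, the S1P exporter, had 5.11, 3.64 and 4.04 CPM in OCI-Ly1 with DMSO and 3.55, 3.83 and 5.66 at 500 nM. These overlapped, with a log2 difference of 0.02 ± 0.19 (adjusted p = 0.95). In TMD8 it had 5.27, 8.97 and 8.70 CPM with DMSO, then 6.53, 5.59 and 4.96 (150 nM), then 4.81, 3.97 and 2.97 (500 nM). The lowest DMSO value was that of library 1, the one that stood apart. SPNS2 fell at 500 nM by 0.94 on the log2 scale (SE 0.21, adjusted p = 0.00067), and the value at 150 nM was -0.45 ± 0.19 (adjusted p = 0.061). Without TMD8 DMSO library 1 the values were -1.14 at 500 nM (adjusted p = 1.4e-05) and -0.65 at 150 nM (adjusted p = 0.0022), and without the first library at 150 nM the latter was -0.56 (adjusted p = 0.038). The lines differed by 0.99 ± 0.30 at 500 nM (adjusted p = 0.0089), a difference that was 0.22 (adjusted p = 0.32) on median-centred log2(TPM + 1). The authors' counts for SPNS2, and likewise for S1PR2 and SGPL1, were not whole numbers, as for reads that match more than 1 sequence.

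SPNS2 and SPNS3 are neighbours in the RefSeq gene order, and the rise of SPNS3 in OCI-Ly1 was not accompanied by one of like size nearby. At 500 nM the 3 genes before SPNS3 had log2 differences of 0.39 ± 0.10 (CYB5D2), 0.23 ± 0.05 (ANKFY1) and -0.51 ± 0.06 (UBE2G1) in OCI-Ly1. Beyond SPNS2 on the other side, MYBBP1A was at -0.27 ± 0.06 and GGT6 at -0.77 ± 0.22. These 5 genes were called, 2 higher and 3 lower. In TMD8, where SPNS3 was not tested, CYB5D2 was at 0.65 ± 0.16, UBE2G1 at -0.43 ± 0.05, MYBBP1A at -0.96 ± 0.05 and GGT6 at 0.75 ± 0.20, all called, and ANKFY1 was at -0.03 ± 0.05 (adjusted p = 0.59).

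**Figure D3:**
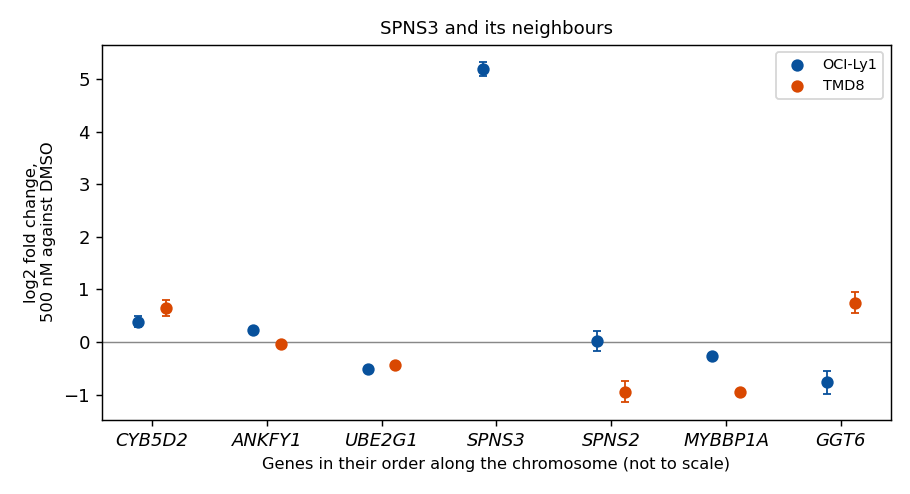
Log2 fold change at 500 nM against DMSO for SPNS3 and the 3 genes on each side of it, in their order along the chromosome and not to scale, for OCI-Ly1 and TMD8. Points are edgeR estimates and bars ± 1 SE, and SPNS3 has no point in TMD8 because it was not tested there. SPNS3 lies at 5.19 in OCI-Ly1, and the 6 neighbours lie between -0.77 and 0.39 in that line.

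The kinases moved in TMD8 and not detectably in OCI-Ly1. SPHK1 had 10.9, 11.4 and 10.97 CPM in TMD8 with DMSO, followed by 7.55, 6.98 and 5.66 at the lower dose and 2.44, 2.62 and 2.25 at the higher. Every treated library lay below every library of the next lower dose or DMSO. SPHK1 fell by 0.73 on the log2 scale at 150 nM (SE 0.12, adjusted p = 8.3e-05) and by 2.17 at 500 nM (SE 0.15, adjusted p = 9.4e-10), the latter a 4.51-fold reduction. The fall from 150 to 500 nM was itself called, at -1.44 ± 0.16 (adjusted p = 5.5e-06). In OCI-Ly1 SPHK1 ran from 5.85 to 8.27 CPM with overlapping groups, at -0.12 ± 0.13 for 500 nM (adjusted p = 0.47). The difference between the lines was 2.08 ± 0.21 at 500 nM (adjusted p = 9.8e-09). At 150 nM it was 0.61 ± 0.19 (adjusted p = 0.018), and it was not called without library 1 of OCI-Ly1 at 150 nM (0.48, adjusted p = 0.068) or without library 3 of TMD8 at 150 nM (0.48, adjusted p = 0.088).

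SPHK2, the second kinase, had 53.3, 66.7 and 71.1 CPM in TMD8 with DMSO, while the 150 nM libraries had 62.8, 61.4 and 59.2 and the 500 nM libraries 49.3, 48.4 and 53.1. The lowest DMSO value was again library 1, just above the highest library at 500 nM. SPHK2 fell at 500 nM by 0.35 (SE 0.08, adjusted p = 0.0012). At 150 nM it was at -0.07 ± 0.08 (adjusted p = 0.53), and without TMD8 DMSO library 1 at -0.18 (adjusted p = 0.012). The fall between the doses was -0.28 ± 0.08 (adjusted p = 0.015) and was not called without library 1 (adjusted p = 0.060) or library 2 (adjusted p = 0.068) at 500 nM. OCI-Ly1 libraries held 15.02 to 21.0 CPM of SPHK2 and overlapped, at 0.05 ± 0.12 for 500 nM (adjusted p = 0.74). The line difference at 500 nM was 0.42 ± 0.15 (adjusted p = 0.022), and leaving out OCI-Ly1 DMSO library 2 (0.35, adjusted p = 0.059), OCI-Ly1 500 nM library 3 (0.39, adjusted p = 0.054) or TMD8 DMSO library 3 (0.34, adjusted p = 0.071) ended the call. This line difference was also not called with library totals alone or on median-centred log2(TPM + 1). The SPHK2 to SPHK1 ratio of TPM in TMD8 was 3.12 to 4.18 in DMSO, 5.38 to 6.97 at 150 nM and 12.03 to 16.4 at 500 nM, without overlap, and 1.13 to 1.92 in all OCI-Ly1 libraries.

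SGPL1, the lyase, had small differences in both lines. OCI-Ly1 had 56.7, 56.7 and 52.2 CPM with DMSO, then 53.0, 51.5 and 53.7 (150 nM), then 58.6, 59.0 and 62.5 (500 nM). The value at 500 nM against DMSO was 0.12 ± 0.06 (adjusted p = 0.095), and against 150 nM SGPL1 was higher by 0.19 ± 0.06 (adjusted p = 0.016). The latter was not called without library 2 at 150 nM (0.16, adjusted p = 0.079) or library 3 at 500 nM (0.16, adjusted p = 0.078). On median-centred log2(TPM + 1) the difference between the doses was likewise not called. In TMD8 SGPL1 was 58.2 to 64.5 CPM in all libraries and was -0.04 ± 0.05 at 500 nM (adjusted p = 0.50). The line difference at 500 nM was 0.19 ± 0.08 (adjusted p = 0.041). It was lost in 10 of 19 alternatives, including the omission of library 3 of OCI-Ly1 DMSO (adjusted p = 0.11) or of OCI-Ly1 500 nM (0.10), of library 1 (0.058) or 3 (0.069) of TMD8 DMSO, and of library 1 (0.066), 2 (0.064) or 3 (0.074) of TMD8 500 nM.

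The balance of the receptors moved in opposite ways: S1PR1 rose in OCI-Ly1 at 500 nM, and in TMD8 S1PR1 fell while S1PR2 rose. S1PR1, the exit receptor, was low in OCI-Ly1, with 1.43, 1.76 and 1.78 CPM in DMSO, followed by 1.78, 1.403 and 1.54 at the lower dose and 4.26, 4.802 and 4.68 at the higher. The 500 nM libraries stood clear of the other 6, and S1PR1 rose by 1.47 ± 0.19 on the log2 scale (adjusted p = 3.5e-06), a 2.77-fold increase. At 150 nM it was at -0.06 ± 0.21 (adjusted p = 0.95). TMD8, in which S1PR1 was abundant, had 89.6, 81.7 and 85.7 CPM with DMSO, while the 150 nM libraries had 70.5, 66.9 and 66.9 and the 500 nM libraries 54.6, 55.7 and 55.9. Here S1PR1 fell, by 0.33 at 150 nM (SE 0.05, adjusted p = 3.9e-05) and by 0.63 at 500 nM (SE 0.05, adjusted p = 1.0e-08), with no overlap between doses. The line difference at 500 nM was 2.13 ± 0.14 (adjusted p = 4.3e-12), the largest among the 8 members tested. Even at 500 nM S1PR1 averaged 4.58 CPM in OCI-Ly1 and 55.4 in TMD8, each scaled within its own line.

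S1PR2, the confinement receptor, was high and steady in OCI-Ly1, at 70.8 to 85.0 CPM over all 9 libraries, with 0.06 ± 0.07 at 500 nM (adjusted p = 0.46). TMD8 had 21.9, 29.7 and 31.5 CPM in DMSO, then 34.5, 35.7 and 38.0 (150 nM), then 45.8, 45.9 and 45.4 (500 nM). The lowest value belonged to DMSO library 1. S1PR2 rose by 0.38 ± 0.10 at 150 nM (adjusted p = 0.0039) and by 0.71 ± 0.10 at 500 nM (adjusted p = 3.9e-06), and without that library by 0.24 (adjusted p = 0.0060) and 0.57 (adjusted p = 5.9e-07). On log2(TPM + 1), whose gene median in TMD8 was -0.10 at 150 nM, the rise at 150 nM was 0.21 and not called (adjusted p = 0.11). The line difference was -0.62 ± 0.12 at 500 nM (adjusted p = 0.00013) and -0.12 on log2(TPM + 1) (adjusted p = 0.39). The S1PR1 to S1PR2 ratio of TPM was 0.0669 to 0.0691 in OCI-Ly1 at 500 nM, against at most 0.0297 in DMSO, and 1.41 to 1.46 in TMD8, against at least 3.22.

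S1PR4 was close to its detection limit. OCI-Ly1 libraries had 0 to 12 counts and the gene did not pass the low-count filter of that line. TMD8 libraries had 7 to 25 counts, 0.524 to 1.24 CPM, and the values were 0.43 ± 0.30 at 150 nM (adjusted p = 0.26) and 0.01 ± 0.34 at 500 nM (adjusted p = 0.99). Differences of this size were not detectable at this depth.

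**Figure D4:**
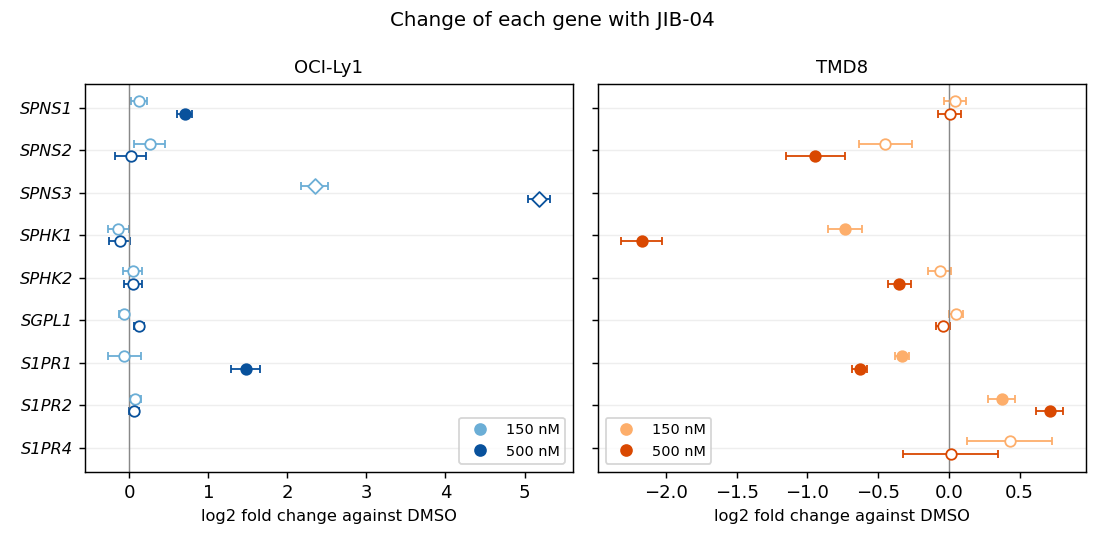
Log2 fold change against DMSO of the 9 genes at 150 nM and 500 nM JIB-04 in OCI-Ly1 and TMD8, on separate axes. Points are edgeR estimates with bars of ± 1 SE, filled where called and open where not, with open diamonds for SPNS3 in OCI-Ly1, which has no test, and no point where a gene was not tested. SPNS1 and S1PR1 are the filled points in OCI-Ly1, and SPHK1 at -2.17 is farthest from 0 in TMD8.

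Counted over the members, dose and line differed as follows. In OCI-Ly1 at 150 nM 0 of 7 tested members other than SPNS3 were called by edgeR, with 0 also by DESeq2, against 0.889% of 15638 genes (0.748% higher and 0.141% lower). At 500 nM 2 were higher and 0 lower, against 53.6% of genes (27.7% higher, 25.9% lower). On log2(TPM + 1) 4 of 7 were called, against 51.0% of genes, so no difference from the background is read from this count. Between the doses 3 of 7 were higher, against 46.2% of genes called in either direction. In TMD8 1 of 8 was higher and 2 lower at 150 nM, against 44.2% of 15363 genes (19.2% and 25.0%). At 500 nM 1 was higher and 4 lower, against 60.7% (29.9% and 30.7%), and between the doses 1 was higher and 3 lower, against 28.7%. The median log2 difference of the 8 members at 500 nM in TMD8 was -0.20, beside 0.04 over all genes. Of 8 members 1 differed between the lines at 150 nM, against 23.3% of 16604 genes, and 7 at 500 nM, against 46.4%, with 6 of the 7 more positive in OCI-Ly1. On centred log2(TPM + 1) the count at 500 nM was 4, against 60.4% of genes, so the order of members and background turned with the scale. The 2 doses of a line share their DMSO libraries. Without TMD8 DMSO library 1 the 150 nM count in TMD8 was 5, with SPNS2 and SPHK2 added, and the count of line differences at 150 nM was 2.

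The split of all called genes by direction moved with the scaling. At 500 nM 51.6% of called genes were higher in OCI-Ly1 and 49.3% in TMD8, while with library totals alone these were 64.0% and 59.4%, with log2(TPM + 1) 71.9% and 18.8%, and with that scale centred on the median 32.3% and 48.3%. None of the 33 called results of the members changed sign under any alternative run.

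Genes of receptor signalling were examined as 1 of 5 lists of related genes, chosen with earlier results of these data known. Of 17 such genes 5 rose, 3 fell and 8 were not called among 16 tested in OCI-Ly1 at 500 nM, and 5 rose and 7 fell among 15 in TMD8, with medians of -0.05 and -0.04. Over all genes tested 53.6% were called in OCI-Ly1 and 60.7% in TMD8, with medians of -0.0033 and 0.04, so the 8 of 16 called in OCI-Ly1 is near the background. CD69, whose protein takes S1PR1 off the cell surface, was 6.23 ± 0.27 CPM in OCI-Ly1 with DMSO, 9.05 ± 0.55 with the lower dose and 14.6 ± 0.82 with the higher (SD, n = 3), a log2 rise of 1.23 ± 0.11 at 500 nM (adjusted p = 3.0e-08). In TMD8 CD69 fell by 0.45 at 500 nM (SE 0.14, adjusted p = 0.0084), and the lines differed by 1.71 ± 0.17 (adjusted p = 1.3e-08). At 500 nM CD69 and S1PR1 thus had the same direction as each other in each line. At 150 nM they did not move together: CD69 rose in OCI-Ly1 by 0.53 ± 0.11 (adjusted p = 0.022), where S1PR1 was not called, and was at 0.09 ± 0.12 in TMD8 (adjusted p = 0.58), where S1PR1 fell. KLF2, a transcription factor known to drive S1PR1, had 0 to 4 counts per OCI-Ly1 library in DMSO, 2 to 3 at 150 nM and 14 to 18 at 500 nM. It passed the low-count filter of that line through the 500 nM libraries, where it was highest. KLF2 is 1 of the 5 genes counted as risen there, but no test is read from it. In TMD8 KLF2 had 900 to 1102 counts per DMSO library and was at -0.04 ± 0.06 at 500 nM (adjusted p = 0.60). A link of KLF2 with S1PR1 was not tested.

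ARHGEF1, an exchange factor that acts downstream of S1PR2 and Gα13, rose with S1PR2 in TMD8, from 135 ± 5.86 CPM to 211 ± 3.72 at 500 nM, by 0.64 ± 0.05 (adjusted p = 3.5e-09). In OCI-Ly1 ARHGEF1 was at -0.05 ± 0.07 (adjusted p = 0.61), and the line difference was -0.66 ± 0.09 (adjusted p = 2.3e-06). Its relative ARHGEF11 rose in both lines, by 2.91 ± 0.31 in OCI-Ly1 from 6 to 12 counts per DMSO library (adjusted p = 4.8e-07) and by 0.61 ± 0.06 in TMD8 (adjusted p = 4.9e-08). STAT3, reported to act with S1PR1 in lymphoma cells, fell in TMD8 by 0.55 (SE 0.05, adjusted p = 1.2e-07) and was at 0.06 ± 0.06 in OCI-Ly1 (adjusted p = 0.45).

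Genes that form, use or carry ceramide make up a pair of further lists. Among ceramidases, ceramide kinase and ceramide transfer genes 4 of 7 tested rose and 0 fell in OCI-Ly1 at 500 nM, and 2 of 7 rose and 0 fell in TMD8, with medians of 0.31 and 0.14. Beside the 53.6% and 60.7% called over all genes, the first count is near the background and the second is below it, and neither difference was tested. ACER2, a Golgi ceramidase that yields sphingosine, rose in TMD8 from 5.62 ± 0.60 CPM with DMSO to 11.8 ± 0.74 with the lower dose and 20.7 ± 1.02 with the higher, by 1.87 ± 0.10 (adjusted p = 5.7e-11), and in OCI-Ly1 by 0.65 ± 0.18 (adjusted p = 0.0050). ASAH1, the acid ceramidase, rose by 0.39 in OCI-Ly1 (adjusted p = 0.00053), as did the alkaline ceramidase ACER3 by 0.31 (adjusted p = 0.0068), and CERK, the ceramide kinase, rose in TMD8 by 0.28 (adjusted p = 0.00051). On the TPM scale CERK was instead slightly lower there, at 4.71 in DMSO and 4.40 at 500 nM, with overlapping libraries. Of 11 tested genes of sphingomyelin and glucosylceramide turnover 5 rose and 0 fell in OCI-Ly1, and 5 rose and 1 fell in TMD8, again beside 53.6% and 60.7% of all genes called. The sphingomyelinases SMPD1 and SMPD3 rose in both lines, by 0.83 ± 0.11 and 0.97 ± 0.15 in OCI-Ly1 and by 0.55 ± 0.10 and 0.59 ± 0.09 in TMD8. Their relative SMPDL3B rose in OCI-Ly1 by 1.44 ± 0.44 (adjusted p = 0.011) from 5 to 11.2 counts per DMSO library, and was at most 1.02 CPM in that line. GALC, the galactosylceramidase, rose in TMD8 by 0.44 ± 0.10 (adjusted p = 0.0010). On the TPM scale the DMSO and 500 nM libraries of TMD8 overlapped for GALC (means 1.87 and 1.94) and SMPD1 (2.35 and 2.67). They did not overlap for SMPD3 (1.69 and 1.95).

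Ceramide synthesis genes were mixed. Of 13 tested 4 rose and 2 fell in OCI-Ly1 at 500 nM (53.6% of all genes called), among them SPTLC1, a subunit of the first enzyme of the pathway, at 0.46, its regulator ORMDL1 at 0.46, and the ceramide synthase CERS4 at -0.58. In TMD8 3 rose and 7 fell (60.7% of all genes called), with DEGS1, the desaturase that forms ceramide, at -0.61 (adjusted p = 1.5e-06). Its relative DEGS2 had 4 to 5 counts per library in DMSO and 7 to 12 at 500 nM, a difference of 1.55 ± 0.39. The ceramide synthase CERS1 had 7.05 to 13 and 9.39 to 20.7 counts, a difference of 1.09 ± 0.36. DEGS2 and CERS1 passed the low-count filter of TMD8 through treated libraries and were highest at 500 nM. Both are among the 3 genes counted as risen there, but no test is read from either. Of 9 other receptors, transporters, carriers and phosphatases of S1P 2 of 7 tested rose and 0 fell in OCI-Ly1, and 4 of 6 rose and 2 fell in TMD8, beside the same shares of all genes. The lipid phosphate phosphatase PLPP1 (PPAP2A in the tables) rose by 0.41 in OCI-Ly1 (adjusted p = 0.018). PLPP3 (PPAP2B) differed by 1.48 in TMD8, with 3 to 6 counts per DMSO library and an overlapping 3 to 19 at 500 nM. It passed the low-count filter of TMD8 through treated libraries, where it was higher. PLPP3 is 1 of the 4 genes counted as risen there, but no test is read from it. APOM, which carries S1P in plasma, fell in TMD8 by 0.53 (adjusted p = 0.041). The S1P exporter MFSD2B had 3 to 25 counts per library and did not pass the filter in TMD8. S1PR3 was called higher in both lines, but its 8296 to 74081 counts per library are far above those of the other receptors and they are not whole numbers, so the assignment of reads to this gene is uncertain.

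The genes whose pattern over the 9 OCI-Ly1 libraries was most like that of SPNS3 were P2RX1 and ARHGAP23 (Pearson r = 0.993 each), MOCOS, ROCK1P1 and ENO3 (0.991 each), out of 11148 genes compared on log2 CPM. These r are a description over 3 doses in shared libraries, and 6 genes exceeded 0.99. P2RX1, an ATP-gated ion channel, went from 0.0927 CPM in DMSO to 0.644 and 11.5, MOCOS, an enzyme that activates molybdenum cofactor, from 0.628 to 2.31 and 12.9, and ENO3, the muscle enolase, from 4.19 to 6.70 and 14.1. ARHGAP23, a GTPase-activating protein, rose from 0.211 to 0.864 and 5.50 CPM, and the pseudogene ROCK1P1, which shares sequence with ROCK1, from 3.48 to 18.7 and 100.1.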

How the data were processed

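RNA was measured by ribosome-depleted, paired-end sequencing in 18 libraries. The authors deposited estimated counts and TPM (transcripts per 1000000) per gene symbol, in 1 table of each kind for each line; kallisto 0.46.0, R 4.3.1, DESeq2 1.40.2 and the build hg19 are listed in the submitters' processing notes, with no role stated. The annotation, strand setting and step from transcripts to genes are not given in the sources used here. Deposited estimated counts were rounded and tested with edgeR 4.0.16 (R 4.3.3; TMM, filterByExpr, quasi-likelihood F test), with the 9 libraries of a line in 1 fit, or all 18 for differences between lines. Adjustment was by Benjamini-Hochberg over all genes tested in a contrast, and SE is |log2 fold change| over the root of the F statistic. Alternatives used DESeq2 1.42.0, limma 3.58.1 on log2(TPM + 1) or log2(TPM + 0.1), library totals, no filter, the replicate number, fewer groups and each library left out. The edgeR script was tested on simulated data. A level of 3 counts was the detection limit, and counts cover counting error only.

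The 9 members and the lists of 64 related genes were chosen with earlier results of these data known; 63 of the 64 matched, 6 of them through an older symbol. All members are named, with from each list up to 3 called genes of largest change at 500 nM, the 5 genes most like SPNS3 (log2 CPM, prior count 2, at least 5 CPM in some group) and 3 neighbours on each side. MFSD2B and the cell type markers are named for their role, and 1 marker is not reported here. RefSeq sequences and gene order are of GRCh38.p14, a different build from that of the counts.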

Additional observations from a re-analysis of the deposited data

Results flagged for a closer look

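For 7 of the 8 members other than SPNS3 the change against DMSO at 500 nM differed between the lines, in a test of the difference itself within 1 edgeR fit of all 18 libraries (OCI-Ly1 minus TMD8, log2 scale). S1PR1 differed by 2.13 (adjusted p = 4.3e-12), with all 3 treated libraries above DMSO in OCI-Ly1 and all 3 below in TMD8. SPHK1 differed by 2.08 (adjusted p = 9.8e-09), SPNS2 by 0.99 (adjusted p = 0.0089), SPNS1 by 0.73 (adjusted p = 3.4e-05), SPHK2 by 0.42 (adjusted p = 0.022), SGPL1 by 0.19 (adjusted p = 0.041) and S1PR2 by -0.62 (adjusted p = 0.00013). At 150 nM SPHK1 differed by 0.61 (adjusted p = 0.018). Of all genes 46.4% differed between the lines at 500 nM and 23.3% at 150 nM. Line and culture medium cannot be told apart.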

How the results depend on the processing

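Of 33 called results of single members, 23 kept their direction and call under every alternative run, and the other 10 kept their direction. The count of members called in OCI-Ly1 at 500 nM was 4 in place of 2 on log2(TPM + 1) and on log2(TPM + 0.1), which added S1PR2 and SGPL1. Leaving out single libraries gave counts of 3 to 5 in TMD8 at 150 nM (main 3) and 0 to 2 for line differences at 150 nM (main 1). That count was 2 with library totals alone, 3 without the filter, 3 on log2(TPM + 1), 2 on that scale centred and 2 with the replicate block, and the count at 500 nM was 4 in place of 7 on centred log2(TPM + 1). SPNS3 in OCI-Ly1 at 500 nM was 4.32 on log2(TPM + 1) and 4.09 centred. The cause of these shifts was not tested.

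Correlations of same-numbered libraries ran from -0.0545 to 0.146. They were not set against differently numbered libraries, so pairing by replicate number was neither established nor excluded. The replicate block left the counts of members called in OCI-Ly1 at 0 and 2 and in TMD8 at 3 and 5. For TMD8 against OCI-Ly1 in DMSO, the TPM alternatives and the block were not run, since tables were scaled separately and blocks lie within lines.

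On log2(TPM + 0.1) the median of all genes at 500 nM was 0.13 in OCI-Ly1 and -0.31 in TMD8, where 5 genes held 46.1 to 64.0% of TPM. Values near 0 that changed sign follow. In OCI-Ly1 at 500 nM centring gave SPNS2 -0.13, S1PR2 -0.032 and SPHK2 -0.073. In TMD8 at 150 nM, log2(TPM + 1), log2(TPM + 0.1) and centring gave SPNS1 -0.12, -0.14 and -0.027, the first 2 gave SGPL1 -0.092 and -0.10, and library totals gave SPHK2 0.017. In TMD8 at 500 nM the same 3 gave SPNS1 -0.35, -0.39 (adjusted p = 0.0077) and -0.10, with -0.0025 by DESeq2 and -0.018 without the filter. S1PR4 was -0.011 without the filter, -0.087 and -0.29 on the uncentred TPM scales, and SGPL1 was 0.051 with library totals. Leaving out single libraries moved S1PR1 from -0.16 to 0.021 and SPHK2 from -0.084 to 0.17 in OCI-Ly1 at 150 nM. At 500 nM it moved SPNS2 there from -0.22 to 0.17 and SPHK2 from -0.040 to 0.16. In TMD8 it moved SPHK2 from -0.18 to 0.021 at 150 nM, and SPNS1 from -0.050 to 0.078 and S1PR4 from -0.20 to 0.26 at 500 nM. Depth limits S1PR4 in both lines and SPNS3 in TMD8.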
